A study of Mus musculus with 2 samples.

Results

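The miR-23, miR-27 and miR-24 genes form 2 paralogous clusters in the mouse genome, Mir23a, Mir27a and Mir24-2 on chromosome 8 and Mir23b, Mir27b and Mir24-1 on chromosome 13. These 6 genes were taken by symbol from the 2202 annotated miRNA genes, by a rule that uses no threshold on a level. They were followed in 2 microRNA sequencing libraries, replicate 1 and replicate 2, from left cerebral cortex of strain B6CASTF1/J, a first-generation hybrid between C57BL/6J and CAST/EiJ. The labels call the libraries biological replicates but give both the same donor, so their spread may be technical. Both libraries carry the same age, 18 to 20 months, no treatment, and a size selection for RNA below 30 nucleotides. Since the labels give 1 group, the comparisons are between genes within a library and between the 2 libraries, and no test between conditions exists. Levels are counts per 1000000 (CPM), the sense counts of a gene relative to those of all miRNA genes in the library.

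A miRNA cluster is a set of hairpins close together on 1 strand, usually cut from a shared primary transcript. Each hairpin yields up to 2 mature arms, named 5p and 3p, and the bases just after the first base of an arm, the seed, largely set which messenger RNAs it pairs with. The miR-23, miR-27 and miR-24 miRNAs are known for roles in blood vessel growth, where they are abundant in endothelial cells, and in glia. miR-23 is known to repress lamin B1 and to promote oligodendrocyte maturation, miR-27 to restrain fat cell differentiation, and miR-24 to act on cell cycle and apoptosis genes.

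The mature arms show which genes of the 2 clusters a short read can tell apart. RefSeq sequences (GRCm38.p6) were found for all 6 genes, with 10 distinct mature arms by name. miR-23b-3p is named only. The arms are printed 5′ to 3′ with the seed, bases 2 to 8, in capitals. The first set holds the 3p arms of miR-23a and of the miR-27 pair, with the 3p arm common to both miR-24 genes.
miR-23a-3p: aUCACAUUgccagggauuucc
miR-27a-3p: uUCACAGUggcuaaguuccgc
miR-27b-3p: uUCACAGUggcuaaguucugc
miR-24-3p: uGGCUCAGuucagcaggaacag
miR-27a-3p and miR-27b-3p were identical over their first 18 bases and had the same seed. They differed at 1 of 21 positions, C19U, counted from 1 at the 5′ end of miR-27a-3p. The first 18 bases of the 21 of miR-23a-3p also occur in the Mir23b hairpin. miR-24-3p is the same 22 bases at Mir24-2 and at Mir24-1. A read that holds no more than this arm therefore has a place at both genes, and reads with several places are in no gene's count.

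The 5p arms differ more between the clusters and are printed to show where the paralogs can be separated.
miR-23a-5p: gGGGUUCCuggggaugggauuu
miR-23b-5p: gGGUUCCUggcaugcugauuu
miR-27a-5p: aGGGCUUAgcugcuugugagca
miR-27b-5p: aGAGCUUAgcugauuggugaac
miR-24-2-5p: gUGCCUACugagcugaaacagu
miR-24-1-5p: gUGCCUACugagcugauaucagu
The miR-24 5p arms had the same seed and were identical over their first 16 bases, but no stretch of 18 bases of either was found at any other gene of the RefSeq table. The longest run common to the miR-27 5p arms was 9 bases and that of the miR-23 5p arms 10 bases, and neither pair had the same seed. Among all mature entries, the seed of miR-24-3p was also that of miR-6413, miR-6410, miR-6369 and miR-5124b, whose genes had no count in either library. The seed of miR-27 was found in no mature entry other than its own pair. That of miR-23a-3p was found in no other of the entries held, which lack miR-23b-3p. It lies within the 18 bases that also occur in the Mir23b hairpin. The deposited counts are per gene and do not say which arm a read came from. The longest run common to the whole hairpins was 20 bases for Mir23a and Mir23b, 20 for Mir27a and Mir27b and 28 for Mir24-2 and Mir24-1. The levels of all 6 genes are uncertain for this reason, most for the miR-24 genes.

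The genes of each cluster lie on the plus strand in the order miR-23, miR-27, miR-24 (mm10, GENCODE M21). On chromosome 8, Mir23a (ENSMUSG00000065611.1) lies at 84208518 to 84208592, Mir27a (ENSMUSG00000065444.1) at 84208672 to 84208758 and Mir24-2 (ENSMUSG00000065541.1) at 84208815 to 84208921. The cluster spans 404 bp, with gaps of 79 and 56 bp, and Mir23a and Mir27a overlap no other annotated gene. The last 2 bases of Mir24-2 overlap the exon of the long non-coding RNA gene Gm26532 on the same strand. On chromosome 13, Mir23b (ENSMUSG00000065599.2) lies at 63300484 to 63300557, Mir27b (ENSMUSG00000065475.2) at 63300712 to 63300784 and Mir24-1 (ENSMUSG00000105904.1) at 63301208 to 63301275. This cluster spans 792 bp, with gaps of 154 and 423 bp, inside the protein-coding gene 2010111I01Rik on the same strand. Mir23b lies in its introns. Mir27b lies within an exon of 1 of the 9 transcripts over it. Mir24-1, with 11 transcripts over it, overlaps 4 exons and lies wholly within at least 1 of them. None of these exons belongs to a protein-coding transcript. A transcript of Fancc crosses the whole chromosome 13 cluster on the opposite strand, without an exon there. Each miR-24 gene also has an annotated miRNA gene opposite it, Mir3074-2 at Mir24-2 and Mir3074-1 at Mir24-1.

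**Figure D1:**
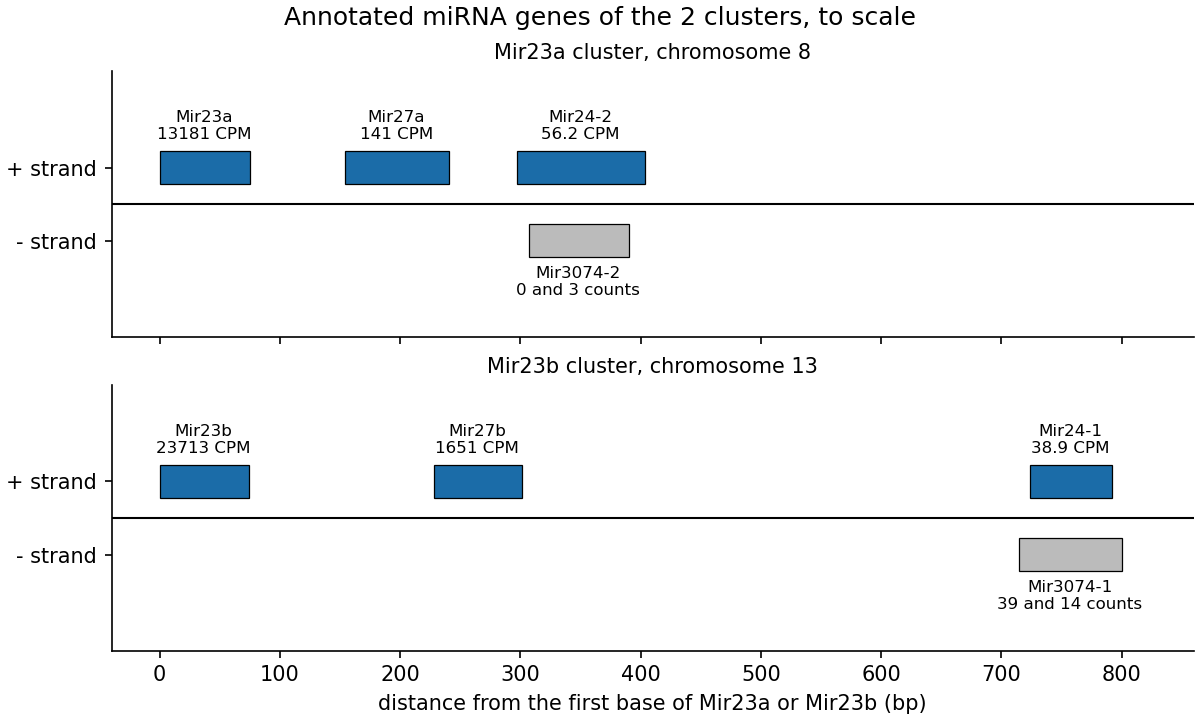
Annotated miRNA genes of the 2 clusters, drawn to scale as distance in bp from the first base of Mir23a (upper panel) or Mir23b (lower panel), with plus-strand genes above the line and minus-strand genes below. Labels give the mean level of the 2 libraries in CPM for the 6 cluster genes and the sense counts of replicates 1 and 2 for the opposite genes, and show lower levels along each cluster, from 13181 to 56.2 CPM and from 23713 to 38.9 CPM.

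The libraries held 5166667 and 4459993 sense counts, 34.8% and 34.9% of all reads, and reads with several places in the genome made up a further 41.8% and 46.4%, not split by gene. Among miRNAs of cortical cells, 10 of 13 neuron genes were expressed, led by Mir132 (38067 ± 6199 CPM) and Mir128-1 (17218 ± 4441 CPM), and 2 of 3 oligodendrocyte genes, led by Mir219a-2 (2032 ± 244.9 CPM) and Mir338 (1872 ± 186.3 CPM). Here and below, ± is the SD of the 2 libraries (n = 2). The neuron genes not expressed were the Mir124a genes, with Mir124a-1 at 4.06 and 1.35 CPM in replicates 1 and 2. Mir9-1, Mir9-2 and Mir9-3 were low, at mean levels of 17.6, 2.51 and 80.1 CPM. The Mir124a and Mir9 miRNAs each have several annotated genes, and reads with several places are in no gene's count. How many such reads came from them was not tested, so these counts do not show that either miRNA is absent or scarce. The 8 of 9 vascular and angiogenic genes that were expressed summed with the silent one to 30781 ± 1568 CPM, led by Mir126a (21257 and 10411 CPM in replicates 1 and 2) and Mir143 (4865 and 9150 CPM). All 6 genes of the further glia list were expressed, at 22763 ± 2121 CPM in sum, led by Mir29a (18699 ± 3113 CPM) and Mir29c (1858 ± 114.4 CPM). Blood miRNAs were low, at 144.8 and 178.9 CPM in sum over the 4 genes matched by symbol, with Mir142 at 75.5 ± 32.8 CPM and Mir451a at 43.4 ± 5.19 CPM. The fifth, listed as Mir486a, is annotated as Mir486 and stood at 43.0 and 18.8 CPM, which brings the sums to 187.7 and 197.8 CPM. The libraries are of whole tissue, so a low level from few cells of a type and a low level per cell cannot be told apart, for these or for the cluster genes. Reads left out because they have several places can also lower a gene's level, and their number per gene was not tested.

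All 6 cluster genes reached 2 CPM in each library, the level called expressed, against 18.6% of all 2202 miRNA genes. Together they took up 3.45% of the sense counts of replicate 1, with a 95% exact interval of 3.44% to 3.47%. In replicate 2 their share was 4.30% (4.28% to 4.32%). Nearly all of it came from the miR-23 genes, with 94.6% of the counts of the 6 genes in replicate 1 and 95.5% in replicate 2. The miR-27 genes gave 4.99% and 4.33%, and the miR-24 genes 0.369% and 0.146%. Intervals cover counting error alone, as reads and not tagged molecules were counted.

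Mir23b was the highest of the 6, with 110211 counts (21331 CPM) in replicate 1 and 116381 counts (26094 CPM) in replicate 2. It ranked 10 and 9 of all miRNA genes in the 2 libraries. Mir23a had 58712 counts (11364 CPM) in replicate 1 and 66891 counts (14998 CPM) in replicate 2, ranks 21 and 13. Both miR-23 genes were higher in replicate 2, and the highest Mir23a value lay below the lowest Mir23b value. Mean levels were 23713 ± 3368 CPM for Mir23b and 13181 ± 2570 CPM for Mir23a, 266.7 and 148.2 times the median level of expressed miRNA genes.

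Mir27b stood far below its neighbour Mir23b, with 8143 counts (1576 CPM) in replicate 1 and 7700 counts (1726 CPM) in replicate 2, ranks 75 and 67. Mir27a had 762 counts (147.5 CPM, 95% exact interval 137.2 to 158.3) in replicate 1 and 600 counts (134.5 CPM, 124.0 to 145.7) in replicate 2, ranks 179 and 174. As a ratio of CPM, the miR-27 genes differed less between the libraries than the other 4 members, and their ranges did not overlap. Their mean levels were 1651 ± 106.3 CPM for Mir27b and 141.0 ± 9.16 CPM for Mir27a. Mir27b lay at 18.6 times and Mir27a at 1.59 times the median of expressed genes.

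The miR-24 genes were the lowest. Mir24-2 had 383 counts (74.1 CPM, 95% exact interval 66.9 to 81.9) in replicate 1 and 171 counts (38.3 CPM, 32.8 to 44.5) in replicate 2, ranks 215 and 233. Mir24-1 had 276 counts (53.4 CPM, 47.3 to 60.1) in replicate 1 and 109 counts (24.4 CPM, 20.1 to 29.5) in replicate 2, ranks 232 and 256. Both lay below the median of expressed genes, at 0.632 times for Mir24-2 and 0.438 times for Mir24-1, and both were lower in replicate 2. Their mean levels were 56.2 ± 25.3 CPM and 38.9 ± 20.5 CPM. Mir24-2 was the higher within each library, while its value in replicate 2 lay below that of Mir24-1 in replicate 1. Reads that hold no more than the identical 3p arm, printed above, have a place at both genes. Reads with several places are in no gene's count, so the miR-24 levels leave such reads out. How many these were was not tested.

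The order from high to low was the same in both libraries: Mir23b, Mir23a, Mir27b, Mir27a, Mir24-2, Mir24-1. Of the 5 neighbouring pairs in this order, the ranges over the 2 libraries overlapped only for Mir24-2 and Mir24-1. Counts were not divided by length, since a read of a mature miRNA covers a whole arm whatever the length of its hairpin. With counts divided by the annotated gene length, 107 bases for Mir24-2 and 68 for Mir24-1, the order of the miR-24 genes turned, with a log2 ratio of Mir24-2 to Mir24-1 of -0.09 in place of 0.56.

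**Figure D2:**
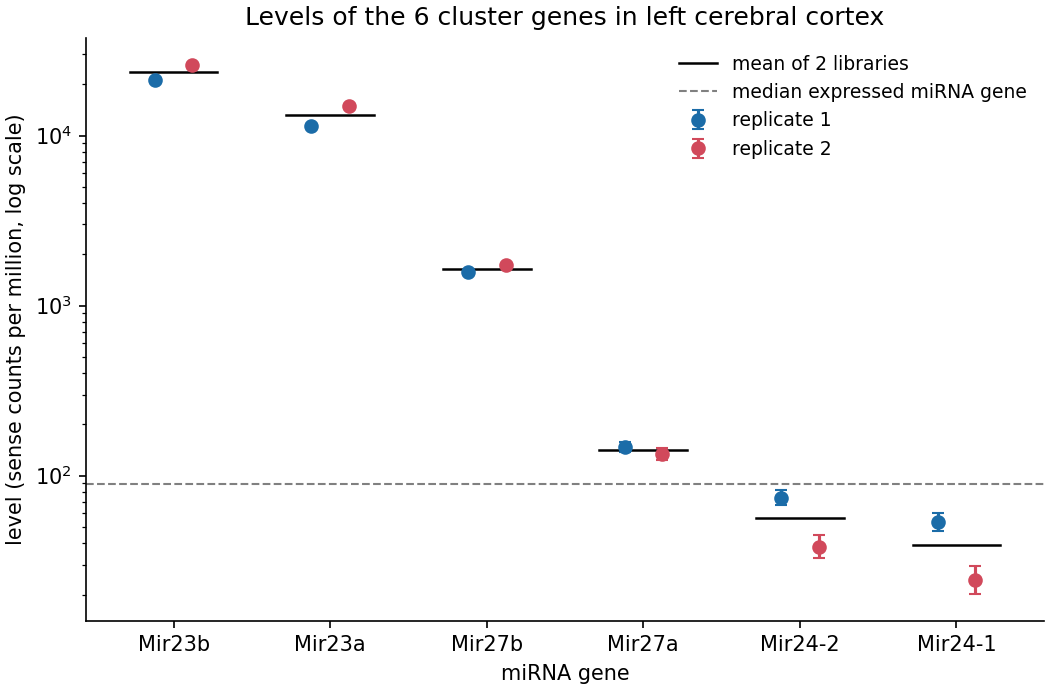
Level of each cluster gene in CPM (log axis) in replicate 1 and replicate 2, with 95% exact counting intervals as bars, the mean of the 2 libraries as a black line and the median of expressed miRNA genes as a dashed line. Both miR-23 genes lie at or above 11364 CPM, and both miR-24 genes lie below the dashed line in each library.

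The steps in level from gene to gene differed between the clusters. Ratios of counts within a library are free of library scaling, and were taken gene by gene along the strand. Mir23a had 77.0 times the counts of Mir27a in replicate 1 (95% exact binomial interval 71.7 to 82.9) and 111.5 times in replicate 2 (102.9 to 121.0). The same step on chromosome 13 was smaller, as Mir23b had 13.5 times the counts of Mir27b in replicate 1 (13.2 to 13.8) and 15.1 times in replicate 2 (14.8 to 15.5). As log2 ratios these were 6.53 ± 0.38 and 3.84 ± 0.11 (SD, n = 2), and the ranges of the 2 clusters did not overlap.

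The next step was the larger one on chromosome 13. Mir27a had 1.99 times the counts of Mir24-2 in replicate 1 (95% exact binomial interval 1.76 to 2.26) and 3.51 times in replicate 2 (2.96 to 4.18). Mir27b had 29.5 times the counts of Mir24-1 in replicate 1 (26.2 to 33.4) and 70.6 times in replicate 2 (58.5 to 86.1). The log2 ratios were 1.40 ± 0.58 and 5.51 ± 0.89 (SD, n = 2), again without overlap between the clusters. In both clusters this ratio was higher in replicate 2, where the miR-24 genes were lower. From end to end, Mir23a had 153.3 and 391.2 times the counts of Mir24-2 in replicates 1 and 2, and Mir23b had 399.3 and 1068 times those of Mir24-1. The miR-24 counts in these ratios leave out reads that hold no more than the identical 3p arm.

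Read as shares, the miR-23 gene held 98.1% and 98.9% of the chromosome 8 cluster and 92.9% and 93.7% of the chromosome 13 cluster in replicates 1 and 2. Mir27a held 1.27% and 0.887% of its cluster, while Mir27b held 6.86% and 6.20%. Mir24-2 held 0.640% and 0.253% of its cluster and Mir24-1 0.233% and 0.0878%. The chromosome 13 cluster thus carried a larger share of miR-27 and a smaller share of miR-24 in each library.

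The paralogs were compared across the clusters in the same way. The chromosome 13 cluster had 1.98 times the summed counts of the chromosome 8 cluster in replicate 1 (95% exact binomial interval 1.96 to 2.00) and 1.84 times in replicate 2 (1.82 to 1.85). The miR-23 pair had nearly the same ratio, since it gave most counts, with Mir23b at 1.88 times Mir23a in replicate 1 and 1.74 times in replicate 2. The miR-27 pair was further apart, with Mir27b at 10.7 times Mir27a in replicate 1 (9.92 to 11.5) and 12.8 times in replicate 2 (11.8 to 14.0). The miR-24 pair went the other way, with Mir24-2 at 1.39 times Mir24-1 in replicate 1 (1.19 to 1.63) and 1.57 times in replicate 2 (1.23 to 2.01). The log2 ratios of the chromosome 8 gene to its chromosome 13 paralog were -0.85 ± 0.08 for miR-23, -3.55 ± 0.19 for miR-27 and 0.56 ± 0.13 for miR-24 (SD, n = 2). The miR-24 ratio rests on 109 to 383 counts per gene and library and is the one that turned when counts were divided by gene length. Reads that hold no more than the first 18 bases of miR-27a-3p, or of miR-23a-3p, also have a place at the paralog. The intervals do not cover this.

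**Figure D3:**
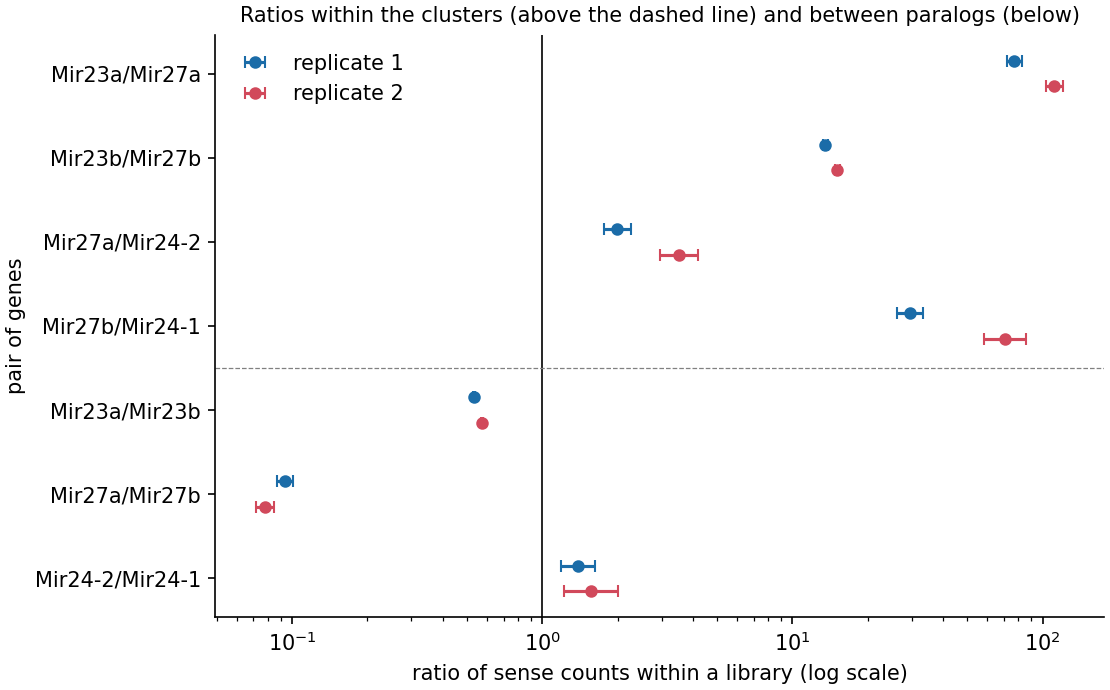
Ratios of sense counts between pairs of cluster genes in replicate 1 and replicate 2 (log axis), with 95% exact binomial intervals as bars and equality as a vertical line. Pairs within a cluster lie above the dashed line and paralog pairs below it, where Mir23a/Mir23b and Mir27a/Mir27b lie left of equality and Mir24-2/Mir24-1 lies right of it.

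The spread within the clusters was set beside that of other miRNA clusters, taken as genes on 1 strand with gaps of at most 10 kb and at least 3 expressed genes, a rule chosen after the levels were seen. Of 14 such clusters, the Mir23b cluster (log2 of highest to lowest mean level 9.25) and the Mir23a cluster (7.87) took places 3 and 4. The chromosome 12 clusters that begin with Mir770 (12.90) and Mir379 (10.29) were wider and hold 13 and 35 expressed genes. Among the 8 clusters with exactly 3 expressed genes, the next was that of Mirlet7d (6.50), and the 6 without miR-23 genes had a median of 4.01. The lowest gene was Mir24-1 in the Mir23b cluster and Mir24-2 in the Mir23a cluster, so both spreads carry the limit of the identical miR-24-3p arm. This is a description over few clusters, and the clusters differ in their number of expressed genes. Identical arms were not looked up cluster by cluster, so the other spreads may carry a like limit.

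The libraries differed at the 6 genes in both directions. With levels as CPM, the log2 ratio of replicate 2 to replicate 1 was 0.40 for Mir23a, 0.29 for Mir23b, 0.13 for Mir27b, -0.13 for Mir27a, -0.95 for Mir24-2 and -1.13 for Mir24-1. The miR-23 genes were thus 1.32 and 1.22 times as high in replicate 2, and the miR-24 genes 1.93 and 2.19 times as high in replicate 1. Mir24-1 was the 1 member of 6 past 2-fold, against 25.4% of the 409 expressed genes. By direction, 19.8% of expressed genes and Mir24-1 were past 2-fold higher in replicate 1, and 5.62% of expressed genes and 0 members in replicate 2. Past 1.5-fold were 48.2% of expressed genes and 2 members, Mir24-1 and Mir24-2. With 6 members these counts do not set them apart from other genes. All expressed genes had a median log2 ratio of -0.17 and a median absolute log2 ratio of 0.57, and the 6 members a median absolute log2 ratio of 0.35. Each direction is between 1 library and 1 library and has no replicate check.

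The call at Mir24-1 depended on the scaling. TMM scaling raised every log2 ratio by 0.13 and DESeq2 size factors by 0.20, which put Mir24-1 at -0.998 and -0.93, with 0 members past 2-fold under either. Mir27a turned from -0.13 to 0.07 with DESeq2 size factors. Under each scaling both miR-23 genes and Mir27b were higher in replicate 2 and both miR-24 genes higher in replicate 1. Genes past 2-fold were higher in replicate 1 in 81 and in replicate 2 in 23 on total counts, 66 and 33 with TMM, and 60 and 38 with DESeq2.

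**Figure D4:**
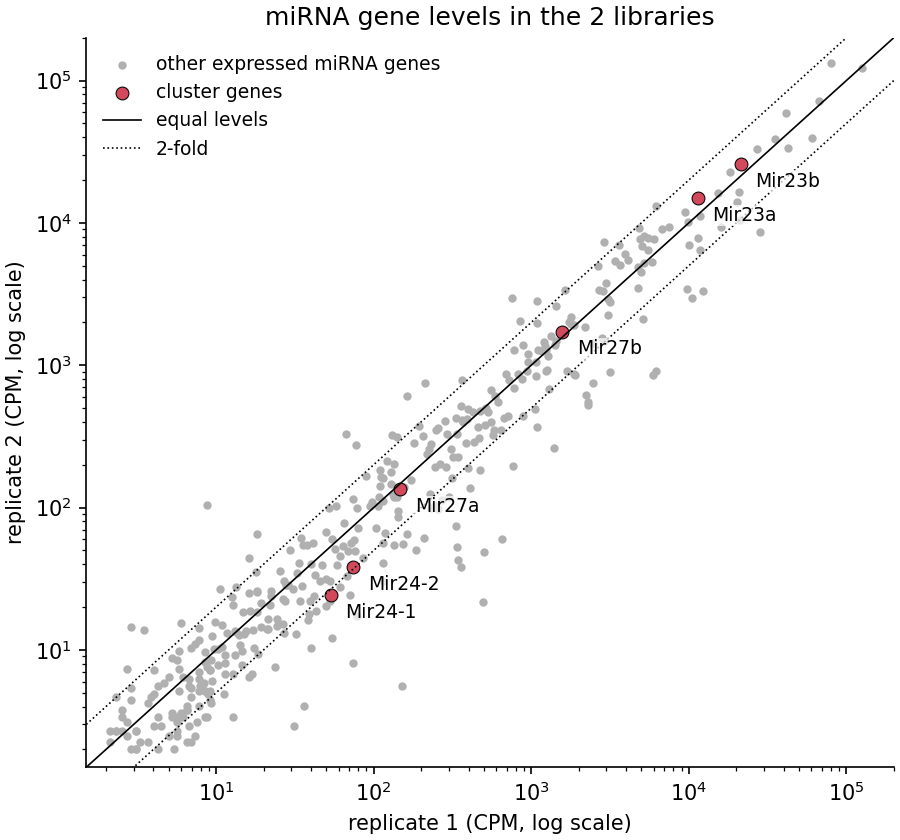
Level in replicate 2 against level in replicate 1 (CPM, log axes) for the 409 expressed miRNA genes, with the 6 cluster genes in red, equality as a solid line and 2-fold as dotted lines. Mir23a and Mir23b lie above the line of equality, and Mir24-1 lies just past the lower 2-fold line.

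The genes most like each member were taken as the 2 expressed genes nearest in log2(CPM + 1) over the 2 libraries, which measures likeness of level and not of regulation. Nearest to Mir23b were Mirlet7d (18144 CPM in replicate 1 and 22925 in replicate 2) and Mirlet7e (27203 and 32838 CPM). Nearest to Mir23a were Mir652 (11871 and 11210 CPM) and Mir151 (9421 and 11867 CPM). Mir27b lay closest to Mir29c (1777 and 1939 CPM) and Mir181d (1344 and 1603 CPM), and Mir27a to Mir496a (156.0 and 139.0 CPM) and Mir184 (132.2 and 124.4 CPM). Mir24-2 lay closest to Snord43 (67.9 and 33.0 CPM) and Mir3059 (85.5 and 44.6 CPM), and Mir24-1 to Mir344b (53.6 and 23.8 CPM) and Mir6944 (52.6 and 22.2 CPM). The genes near the miR-24 pair were also lower in replicate 2, as the measure of likeness requires.

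Annotated miRNA genes on the opposite strand lie at the miR-24 genes and at no other member. Mir3074-1 had 39 sense counts (7.55 CPM) and 14 (3.14 CPM) in replicates 1 and 2, and Mir3074-2 had 0 and 3. For Mir3074-2 a count of 0 allows up to 0.581 CPM in replicate 1. The arm named for both opposite genes, miR-3074-5p, has 20 bases in common with the reverse complement of miR-24-3p and is printed to show this.
miR-3074-5p: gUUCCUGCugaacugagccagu
Like the miR-24 genes, Mir3074-1 was lower in replicate 2. The 276 and 109 counts of Mir24-1 and the 383 and 171 of Mir24-2 stand as antisense counts of their opposite genes. In the column counted without strand both miR-24 genes and both opposite genes were at 0, though both miR-24 genes had sense counts. Only 4 of the 6 members thus reached 2 CPM in that column. It left 405700 and 328968 reads ambiguous between genes in replicates 1 and 2, not split by gene. Mir23a, Mir27a, Mir23b and Mir27b had the same counts in both columns and no antisense count.

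Identical arms are not rare among the measured genes. Of 1018 genes with a mature RefSeq entry, 94 had an arm identical to one at another gene, Mir24-1 and Mir24-2 among them. Of these 45 were expressed (47.9%), with a median mean level of 85.7 CPM. Of the 924 others, 322 were expressed (34.8%), with a median of 108.8 CPM. Both miR-24 genes lay below the median of the first set, while all 4 miR-23 and miR-27 genes lay above that of the second. Each gene is set beside its own set alone, and a link of identical arms to level was not tested.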

How the data were processed

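The deposited values are raw read counts per miRNA gene, in 1 table per library, with 1 column without strand and 1 for each strand. Per the deposited descriptions of the files they use mm10 and GENCODE M21; which aligner and counter were run is not given in the sources used here. All 2202 gene identifiers matched GENCODE M21 miRNA genes. The 4 lines that name no gene, 65.2% and 65.1% of reads, were left out of totals. The third column was taken as sense. The labels call the libraries biological replicates but give both the same donor, so their spread may be technical; the labels also disagree on sex.

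CPM, exact (Clopper-Pearson) 95% intervals, ratios and shared sequence runs were computed in Python 3.11.15 (pandas 2.3.3, SciPy 1.17.1). Scaling alternatives used edgeR 4.0.16 (TMM) and DESeq2 1.42.0 size factors in R 4.3.3. With 1 group there was no test, and a gene was called different between libraries past 2-fold. A count of 0 allows up to 0.581 and 0.673 CPM, taking 3 counts as the limit. Named genes are the 6 members, miRNA genes within 10 kb, the 2 nearest in level to each and the 2 highest of each of 5 marker lists. Named after their values were seen were clusters by their first or leading gene, the Mir124a and Mir9 genes, and Mir486, which RefSeq also lists as mir-486a. The miRNAs with the seed of a member arm were named for that seed. The members and lists were chosen with earlier results of these data known.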

Additional observations from a re-analysis of the deposited data

Results flagged for a closer look

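Signal outside the sense counts of the 6 genes stood above 3 counts in both libraries in 2 places. Antisense counts at Mir24-1 numbered 39 in replicate 1 and 14 in replicate 2, and equal the sense counts of Mir3074-1, the annotated gene opposite it. There were 6203588 reads with more than 1 place in the genome in replicate 1, and 5928954 in replicate 2. They are not split by gene in the deposited tables, so how many came from the miR-24-3p arm, which is the same at Mir24-1 and Mir24-2, was not tested.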

How the results depend on the processing

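The 8 ratios between genes within a library were recomputed in 37 settings in all. With counts divided by gene length, added after the data were seen, the log2 ratio of Mir24-2 to Mir24-1 turned to -0.093 and that of Mir27a to Mir27b moved to -3.80; gene lengths differ within both pairs. The other 6 values by gene length and all 8 with 0.5 added to each count kept their direction and stayed within 1 SD of the libraries. The 16 values on a single library kept their direction; with 2 libraries their distance from the mean is fixed by the SD. Of the 5 values without strand, all kept their direction, and 4 rest on the same counts and could not move. Without strand, the 3 ratios that hold a miR-24 gene alone gave no value, and 4 of 6 members reached 2 CPM. All 6 members were expressed at 1 and at 10 CPM and in each library alone. The number past 2-fold was 1 on total counts and without a filter on low counts, 0 with TMM, 0 with DESeq2 size factors, and 2 at a fold of 1.5, where Mir24-2 joined Mir24-1. Counting all reads in the denominator lowered Mir23b to 8264 CPM and Mir24-1 to 13.6 CPM, and leaving out the 5 highest genes raised them to 39722 and 64.0 CPM. No paired analysis was possible because the labels give 1 group. Depth limits the miR-24 genes most, at 109 to 383 counts.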
